A study of Mus musculus with 21 samples.

Results

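Lactate is made from pyruvate, or turned back into it, by lactate dehydrogenase, and crosses the cell membrane through monocarboxylate transporters, while glucose enters through facilitative transporters. The RNA levels of 9 genes of this route were measured in germ cells enriched from testes of C57BL/6J (B6) mice at 12 days post-partum (dpp), the age of early meiotic prophase. They are the lactate dehydrogenase genes Ldha, Ldhb and Ldhc, the glucose transporter genes Slc2a1 and Slc2a3, the lactate transporter genes Slc16a1, Slc16a3 and Slc16a7, and Bsg, which encodes basigin. They were taken by symbol from the 37620 genes of the deposited table, and each of the 9 symbols had 1 row.

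The study mapped binding of the meiotic histone methyltransferase PRDM9, and its RNA-seq served to set hotspot use beside gene expression. It holds 12 libraries, 3 for each of the sample numbers 186wt, 343wt, 444wt and 456wt, which share strain, age and preparation, so that the sample number is the comparison the RNA-seq allows. The labels call the cells spermatocytes and enriched germ cells taken after collagenase and trypsin digestion, and the study counts 4 replicates. How many animals gave a number, and whether its 3 libraries are repeats of 1 RNA, is not given in the sources used here, so p-values between numbers measure the spread between libraries, which may be technical.

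In the testis, Sertoli cells, the somatic nurse cells of the seminiferous tubule, take up glucose, make lactate and release it, and spermatocytes and spermatids use that lactate as fuel. Ldha encodes the muscle-type subunit and Ldhb the heart-type subunit of the lactate dehydrogenase tetramer, and Ldhc encodes the testis subunit, which builds up in the meiotic and later germ cells and is known for its role in sperm motility. The transporters MCT1 (Slc16a1) and MCT4 (Slc16a3) need basigin to reach the membrane, MCT2 (Slc16a7) is a high-affinity lactate and pyruvate transporter, and GLUT1 (Slc2a1) and GLUT3 (Slc2a3) are high-affinity glucose transporters.

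Levels were given in FPKM, a fragment count divided by transcript length and library depth, a unit in which genes can be set side by side, and every level below is a mean of the 3 libraries of a number or a mean ± SD over the 4 numbers. The 9 genes ran from 392 ± 113 FPKM for Ldhb to 0.909 ± 0.419 FPKM for Slc16a7 (n = 4), with a median of 32.5 FPKM, beside 5.01 FPKM over the 20795 genes tested, those whose mean reached 0.1 FPKM. Ldhb was higher than 99.7% of all genes of the table and Bsg higher than 99.4%. The preparation also held RNA of somatic cells. The summed level of 9 Sertoli marker genes was 1767 to 3189 FPKM per number. That of 9 meiotic prophase markers was 394 to 655 FPKM, and that of 8 spermatogonial markers 656 to 931 FPKM. The marker Clu alone gave 1251 to 2380 FPKM of the Sertoli sum, and Tex101 171 to 314 FPKM of the meiotic sum. These sums therefore do not rank the cell types. Markers of round spermatids, cells that had not yet formed at this age, summed to 2.38 to 4.30 FPKM, with Prm2 at 0 in every library. In such bulk samples fewer cells of a type and less RNA per cell cannot be told apart. Estimated from the steps of low FPKM values, the libraries held 13.0 to 18.2 M (mega) fragments.

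**Figure D1:**
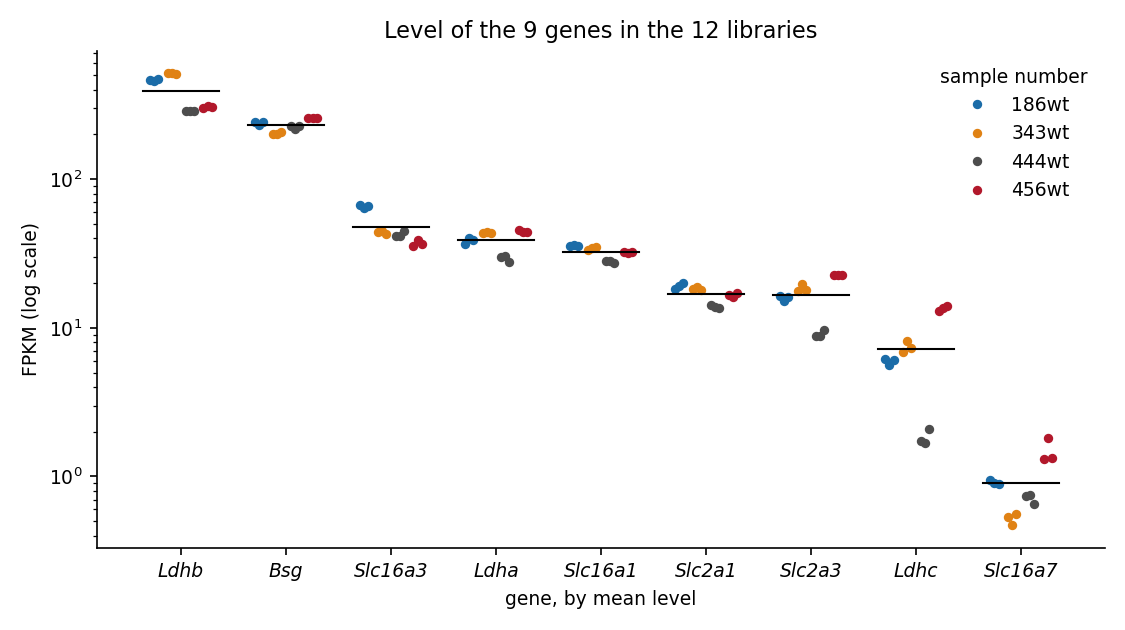
FPKM of the 9 genes (log scale) in each of the 12 libraries, coloured by sample number; black lines are means over the 4 numbers. Ldhb and Bsg lay above the other 7 genes in every library, Slc16a7 stayed at or below 1.81 FPKM, and the 3 Ldhc points of 444wt lay between 1.67 and 2.10 FPKM while those of 456wt lay between 13.05 and 13.93 FPKM.

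The 3 lactate dehydrogenase genes are paralogs, so it was checked first whether a read of one could be counted for another. Ldha (chr7:54096845-54110997, plus strand, NCBI build 37) and Ldhc (chr7:54116573-54133512, plus strand) are neighbours, 5576 bp apart, with no gene of the table between them, and Ldhb (chr6:142438769-142456477, minus strand) is on another chromosome. Over their coding sequences Ldha and Ldhc shared 73.3% of aligned bases, Ldha and Ldhb 71.5%, and Ldhb and Ldhc 64.0%, and the longest identical run in any pair was 20 bases. The most alike stretch of 100 bases, the length of 1 read, is shown for the 3 genes because it is where reads would be hardest to place. It spans the junction of exons 5 and 6 (coding bases 550 to 649 of Ldha and Ldhc, 553 to 652 of Ldhb), between chr7:54106386-54107303 for Ldha, chr6:142442681-142444130 for Ldhb and chr7:54128413-54131102 for Ldhc, with the intron between the exons left out of the sequences. Capitals mark the 29 positions at which the 3 genes do not all have the same base.
Ldha: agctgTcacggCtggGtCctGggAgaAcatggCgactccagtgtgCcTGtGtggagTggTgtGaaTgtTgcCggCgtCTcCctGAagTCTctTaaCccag
Ldhb: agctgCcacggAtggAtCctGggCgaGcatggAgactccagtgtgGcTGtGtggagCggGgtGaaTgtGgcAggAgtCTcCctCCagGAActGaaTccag
Ldhc: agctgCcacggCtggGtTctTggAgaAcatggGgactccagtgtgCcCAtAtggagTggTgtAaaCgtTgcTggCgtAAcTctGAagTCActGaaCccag

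Even here Ldha and Ldhc differed at 15 of the 100 positions, Ldha and Ldhb at 19, and Ldhb and Ldhc at 26. With reads of 100 bases and at most 1 mismatch, no stretch of any of the 9 genes' longest transcripts was found in a transcript of another of the 9. For Ldhc, Slc16a1, Slc16a7 and Bsg no such stretch was found in any other gene of 95495 transcripts. For Ldha, 8.82% of the stretches were shared with the pseudogenes Gm11814, at 0 FPKM, and Ldha-ps2, at 0.213 ± 0.113 FPKM, and for Ldhb 7.88% with Gm5514, at 0.404 ± 0.267 FPKM. These levels are small beside those of the genes, and the pseudogene Ldha-ps was at 0.0342 ± 0.0239 FPKM. For Slc2a1, 0.399% of the stretches were shared with Gm12868, at 0.158 FPKM. For Slc2a3, 0.357% of the stretches of the longest transcript were shared. Over all Slc2a3 transcripts 8 other genes shared stretches, the highest being Snf8, at 139 ± 17.6 FPKM.

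Ldhb was the main lactate dehydrogenase gene of the preparation in every library. It was at 465 FPKM in 186wt, 512 FPKM in 343wt, 286 FPKM in 444wt and 306 FPKM in 456wt. No number overlapped another: 186wt and 343wt were high, and 444wt and 456wt were low. The highest number exceeded the lowest by 0.84 ± 0.013 (SE) on the log2(FPKM + 0.1) scale (moderated F-test of limma over the 4 numbers, adjusted p = 1.75e-12).

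Ldha stood lower, at 38.5 FPKM in 186wt, 43.7 FPKM in 343wt, 29.3 FPKM in 444wt and 44.6 FPKM in 456wt. Lowest was 444wt, below the libraries of the other 3, and 456wt and 343wt overlapped. The difference was 0.60 ± 0.040 (SE, log2 scale; limma, adjusted p = 4.93e-07), and 0.21 without 444wt (adjusted p = 0.0016). The ratio of Ldhb to Ldha was 12.1 in 186wt, 11.7 in 343wt, 9.76 in 444wt and 6.86 in 456wt.

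Ldhc, the testis form, was the lowest of the 3 and differed most between numbers. It was at 5.96 FPKM in 186wt, 7.42 FPKM in 343wt, 1.84 FPKM in 444wt and 13.5 FPKM in 456wt, with no overlap between numbers. The level in 456wt was 7.34 times that in 444wt, a difference of 2.82 ± 0.092 (SE, log2 scale; limma, adjusted p = 2.66e-09). This was a larger range than that of 98.8% of the genes tested, and without 444wt it was 1.17 (adjusted p = 3.59e-06). At the estimated depth the lowest Ldhc library, of 444wt, held about 34 fragments, which gives a counting error of 17.3%, and the highest library about 274 fragments.

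The make-up of the lactate dehydrogenase RNA therefore differed between numbers. Ldhc made up 1.17% of the summed FPKM of the 3 genes in 186wt, 1.32% in 343wt, 0.579% in 444wt and 3.71% in 456wt. Ldhb made up 91.3%, 90.9%, 90.2% and 84.0% in the same order, so that 456wt was the number with the highest share of Ldhc and the lowest of Ldhb. Both shares differed between numbers beyond the spread of libraries (exact permutation test of the F statistic over 15400 divisions of the 12 libraries, Benjamini-Hochberg over 4 shares, adjusted p = 0.00013 for each). The smallest unadjusted p that this permutation test allows is 6.49e-05, so equal adjusted p-values near it do not rank the shares. The mean share of Ldhc was 1.69% ± 1.38 (SD, n = 4), and 1.02% without 456wt, where the test still passed (adjusted p = 0.0048).

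**Figure D2:**
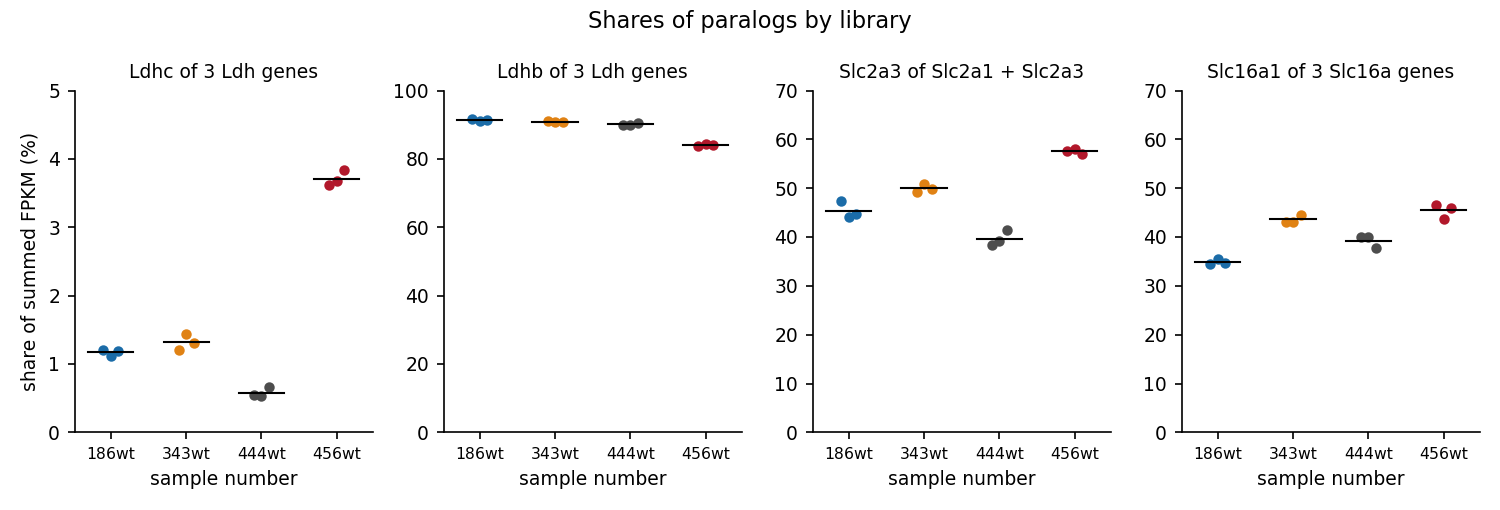
Share of a gene in the summed FPKM of its group, in percent, for each of the 12 libraries by sample number; black lines are means of the 3 libraries, and the vertical axes differ between panels. The share of Ldhc was 3.71% in 456wt and 0.579% in 444wt, and the share of Slc2a3 was 57.6% and 39.6% in the same numbers.

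The neighbours Ldha and Ldhc both had their lowest level in 444wt, and over the 12 libraries their levels on the log2 scale had a Pearson r of 0.937, a description of 4 samples with 3 libraries each. Tsg101, the next gene after Ldhc, 10807 bp away on the other strand, was at 37.4, 38.3, 39.6 and 37.4 FPKM and did not share that pattern. The bases before the starts of both genes are shown because the members lie side by side and moved together in part (RefSeq, GRCm38.p6, plus strand, most upstream start listed), at chr7:46845554-46845803 for Ldha and chr7:46861013-46861202 for Ldhc. The Ldhc stretch ends where a GENCODE transcript begins, 60 bases before the RefSeq start. Capitals mark matches of 4 motifs on either strand. The Sp1 box was searched as GGGCGG. For the core of the cAMP response element the letters were TGACG, and for the core of the hypoxia response element they were ACGTG. The motif of the TBP protein, TATAAA, was the last. The cAMP core and the hypoxia core can overlap by 3 letters. A core of either kind that is part of a palindrome counts once on each strand.
Ldha: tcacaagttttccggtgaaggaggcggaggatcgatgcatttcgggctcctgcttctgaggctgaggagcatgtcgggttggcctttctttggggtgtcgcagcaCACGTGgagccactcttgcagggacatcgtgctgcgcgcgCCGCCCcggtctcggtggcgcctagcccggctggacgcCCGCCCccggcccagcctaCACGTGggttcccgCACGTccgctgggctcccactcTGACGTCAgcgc
Ldhc: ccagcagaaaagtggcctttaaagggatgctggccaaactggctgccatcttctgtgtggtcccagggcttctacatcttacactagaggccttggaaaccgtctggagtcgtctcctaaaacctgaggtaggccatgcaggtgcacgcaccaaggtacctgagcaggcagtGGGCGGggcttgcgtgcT

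In the 250 bases before the RefSeq start, Ldha held 5 matches of the hypoxia core, 2 of the cAMP core and 2 of the Sp1 box. Its cAMP matches, at positions -12 and -9, were the 2 strands of 1 palindrome. The hypoxia matches at -145 and -144 were such a pair, as were those at -48 and -47. Ldhc held 1 match of the Sp1 box, at -78, and 2 of the cAMP core, at -61 and -47, which run into or lie after the GENCODE start. Neither held the TBP motif, and Ldhb held none of the 4 motifs. Of 27025 promoters of the same length, 16.5% held the hypoxia core, 17.8% the cAMP core, 33.0% the Sp1 box and 13.0% the TBP motif. These shares are not matched for base composition, and every motif but that of TBP holds the letters CG. CG occurred 25 times before Ldha, 8 times before Ldhc, 13 before Slc2a1, 37 before Slc16a1 and 29 before Slc16a3, beside a median of 6. Of the other members listed by RefSeq, Slc2a1 held 1 match of the hypoxia core, and Slc16a1 and Slc16a3 held 2 each. Those of Slc16a1, at -200 and -199, were 1 palindrome, and those of Slc16a3, at -27 and -14, lay apart on the gene strand. These matches describe letters and not sites of binding.

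The glucose transporter genes had nearly the same mean level, 17.0 ± 2.31 FPKM for Slc2a1 and 16.5 ± 5.68 FPKM for Slc2a3 (SD, n = 4), and differed in how far the numbers were apart. Slc2a1 (chr4:118781316-118809935, plus strand) was at 19.1 FPKM in 186wt, 18.4 FPKM in 343wt, 13.9 FPKM in 444wt and 16.7 FPKM in 456wt. Its libraries in 186wt and 343wt overlapped, and 444wt was lowest. The difference was 0.46 ± 0.042 (SE, log2 scale; limma, adjusted p = 1.06e-05), and 0.19 without 444wt (adjusted p = 0.016). The processed transcripts Gm12868 and Gm12867 overlap Slc2a1 on the other strand, at 0.158 and 0.285 FPKM.

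Slc2a3 (chr6:122677827-122751658, minus strand) was at 15.9 FPKM in 186wt, 18.4 FPKM in 343wt, 9.10 FPKM in 444wt and 22.7 FPKM in 456wt. No number overlapped another, and the order of the numbers was that of Ldhc. The level in 456wt was 2.49 times that in 444wt, a difference of 1.31 ± 0.053 (SE, log2 scale; limma, adjusted p = 1.33e-08), and 0.51 without 444wt (adjusted p = 8.46e-05). Slc2a3 made up 45.4% of the summed FPKM of the 2 genes in 186wt, 49.98% in 343wt, 39.6% in 444wt and 57.6% in 456wt (exact permutation test, adjusted p = 0.00013). Slc2a3 was therefore the lower of the pair in 186wt and 444wt and the higher in 456wt, and in 343wt they were level.

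Among the lactate transporter genes Slc16a3 and Slc16a1 were both well expressed and Slc16a7 was the lowest of the 9 genes. Slc16a3 (chr11:120809794-120822182, plus strand), which encodes MCT4, known for lactate release from glycolytic cells, was at 65.8 FPKM in 186wt, 44.0 FPKM in 343wt, 42.5 FPKM in 444wt and 37.1 FPKM in 456wt. Sample 186wt stood above all others, and 343wt and 444wt overlapped. The difference was 0.83 ± 0.040 (SE, log2 scale; limma, adjusted p = 5.52e-08), and 0.25 without 186wt (adjusted p = 0.0022). Csnk1d lies across the end of Slc16a3 on the other strand and shared 17.4% of its stretches of 100 bases. Since strand was not stated, reads of the 2 genes cannot be told apart there. Csnk1d itself was at 82.2, 81.0, 82.3 and 83.8 FPKM in the 4 numbers, without the high level of 186wt.

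Slc16a1 (chr3:104442591-104462385, plus strand), which encodes MCT1, was at 35.7 FPKM in 186wt, 34.4 FPKM in 343wt, 27.9 FPKM in 444wt and 32.1 FPKM in 456wt. No number overlapped another, with 444wt lowest. The difference was 0.35 ± 0.025 (SE, log2 scale; limma, adjusted p = 1.16e-06), and 0.15 without 444wt (adjusted p = 0.0024). The ratio of Slc16a3 to Slc16a1 was 1.84 in 186wt, 1.28 in 343wt, 1.52 in 444wt and 1.16 in 456wt. Slc16a1 made up 40.8% ± 4.73 (SD, n = 4) of the summed FPKM of the 3 transporter genes, from 34.9% in 186wt to 45.4% in 456wt (exact permutation test, adjusted p = 0.00013).

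Slc16a7 (chr10:124663520-124766019, minus strand) was at 0.913 FPKM in 186wt, 0.520 FPKM in 343wt, 0.713 FPKM in 444wt and 1.49 FPKM in 456wt. No number overlapped another, and 456wt was 2.87 times 343wt. The difference was 1.35 ± 0.16 (SE, log2 scale; limma, adjusted p = 0.00013), and 0.71 without 456wt (adjusted p = 0.015). At the estimated depth its lowest library, of 343wt, held about 29 fragments, a counting error of 18.5%.

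Bsg (chr10:79167103-79174724, plus strand), the chaperone of MCT1 and MCT4, was at 239 FPKM in 186wt, 204 FPKM in 343wt, 225 FPKM in 444wt and 257 FPKM in 456wt. No number overlapped another, and the order was that of Slc16a7. The difference, 0.34 ± 0.022 (SE, log2 scale; limma, adjusted p = 9.62e-07), was the smallest of the 9 genes, and was 0.20 without 343wt (adjusted p = 0.00031). Bsg RNA was 2.93 ± 0.592 times the summed FPKM of the 3 transporter genes (SD, n = 4), from 2.33 in 186wt to 3.65 in 456wt.

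In the order of mean level the genes were Ldhb, Bsg, Slc16a3, Ldha, Slc16a1, Slc2a1, Slc2a3, Ldhc and Slc16a7. Of the 8 pairs of neighbours in that order, the ranges over the 4 numbers did not overlap for Ldhb and Bsg, Bsg and Slc16a3, Slc16a1 and Slc2a1, and Ldhc and Slc16a7. Ldha was above Slc16a1, and Slc2a3 above Ldhc, in 4 of 4 numbers, though their ranges overlapped. Slc16a3 was above Ldha in 3 of 4 numbers by a mean of 0.26 ± 0.48 (SD) on the log2 scale (two-sided exact sign-flip permutation test, p = 0.375). Slc2a1 was above Slc2a3 in 2 of 4 numbers by 0.11 ± 0.44 (SD, log2 scale; exact permutation test, p = 0.75), and without 444wt the sign of that mean turned. The smallest p that 4 numbers allow in this test is 0.125, which all other neighbours reached. The differences of Slc16a3 from Ldha and of Slc2a1 from Slc2a3 were therefore smaller than their spread between numbers.

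All 9 genes passed the test between numbers, in a table in which 58.2% of the genes tested did so. Their median range was 0.83 on the log2 scale, beside 0.55 over all genes tested. Ldhc, Slc2a3 and Slc16a7 had a called difference above 1 on the log2 scale, 3 of 9 beside 10.5% of the genes tested. Such a difference was also called for 3 of the 11 genes listed as other Slc16a genes and Emb. Among 12 other glucose transporter genes it was called for 4. With a pseudocount of 1 the difference of Slc16a7 was 0.71 and 2 members were above 1, and likewise 2 without 343wt, 444wt or 456wt. Of the 9, 6 were called with their lowest level in 444wt, beside 14.0% of the genes tested, and these were the 3 lactate dehydrogenase genes, both glucose transporter genes and Slc16a1. Ldha, Ldhc, Slc2a3, Slc16a7 and Bsg were called with their highest level in 456wt, beside 16.2% of the genes tested, although with libraries scaled by the median of ratios Ldha was highest in 343wt. The members were chosen with results of these data known, and they are a small set, so these counts describe the 9 genes.

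**Figure D3:**
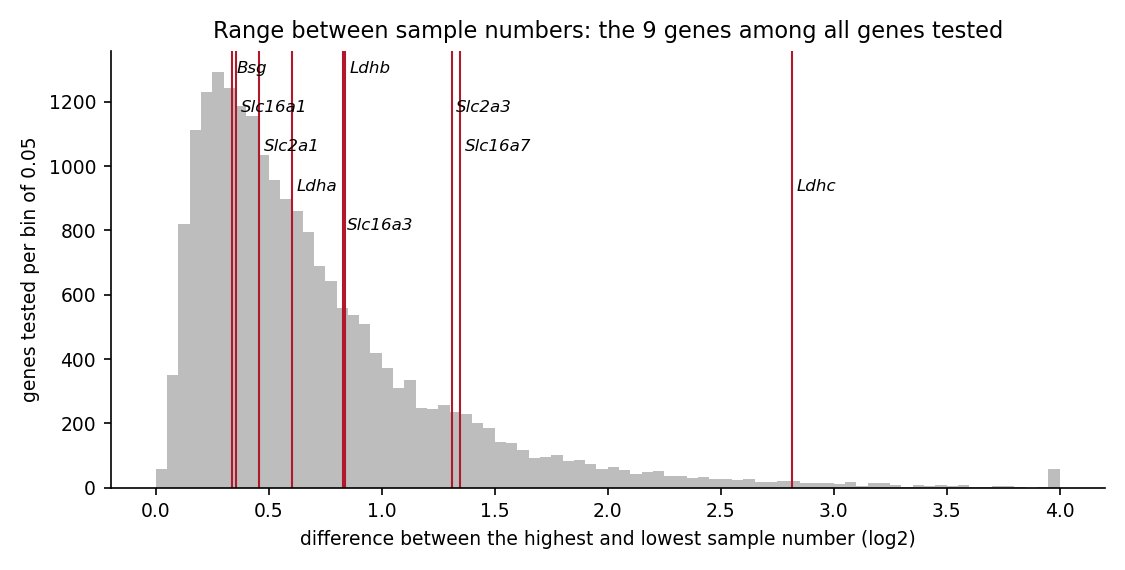
Number of genes (of 20795 tested, in bins of 0.05; ranges above 4 stand in the last bin) by the difference between the highest and lowest sample number on the log2(FPKM + 0.1) scale, with red lines at the 9 genes. Bsg at 0.34, Slc16a1 at 0.35 and Slc2a1 at 0.46 lay below the median of 0.55, and Ldhc at 2.82 lay beyond 98.8% of genes.

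The genes fell into patterns that cut across the families in part. The means of Ldha, Ldhc and Slc2a3 had the same order of numbers, though the Ldha libraries of 456wt and 343wt overlapped. Over the 12 libraries Ldha had a Pearson r of 0.937 with Ldhc and 0.951 with Slc2a3. Among 14348 genes whose mean reached 1 FPKM, the gene whose level over the 12 libraries was most like that of Ldhc was Slc2a3, and the gene most like Slc2a3 was Ldhc (Pearson r = 0.996 on the log2 scale). The immediate-early transcription factor gene Junb came second for Ldhc (r = 0.981) and was also near the top for Slc2a3 (r = 0.978), at 76.7 FPKM in 186wt, 89.9 FPKM in 343wt, 52.1 FPKM in 444wt and 109 FPKM in 456wt. Ptchd3, at 3.77, 3.59, 0.930 and 6.96 FPKM, followed for Ldhc, and Hpgd, which encodes a prostaglandin-degrading enzyme, was the second for Slc2a3, at 4.39, 5.77, 2.53 and 7.40 FPKM. The libraries are 3 from each of 4 samples, so many genes follow any order of the numbers: r was over 0.9 for 120 genes with Ldhc and 116 with Slc2a3.

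A second pattern joined Slc2a1 and Slc16a1 (r = 0.974), which were highest in 186wt and lowest in 444wt. It was shared widely, with r over 0.9 for 400 genes with Slc2a1 and 505 with Slc16a1. The genes most like Slc16a1 were Fxyd6 (r = 0.994), Hopx and P4ha1, and those most like Slc2a1 were Slc25a30 (r = 0.988), Os9 and Txk. Slc16a7 and Bsg formed another pattern (r = 0.939), highest in 456wt and lowest in 343wt, with r over 0.9 for 97 and 109 genes. The genes most like Bsg were Ilk (r = 0.969), which encodes an integrin-linked kinase, Syk and Rasl11a, and those most like Slc16a7 were Mmp28 (r = 0.967), C1qtnf3 and 6030408B16Rik. Ldha was most like Rhob (r = 0.979), C1qtnf6 and Tnfrsf21, and Slc16a3 most like Tmx4 (r = 0.989), Man2a2 and Clk1.

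**Figure D4:**
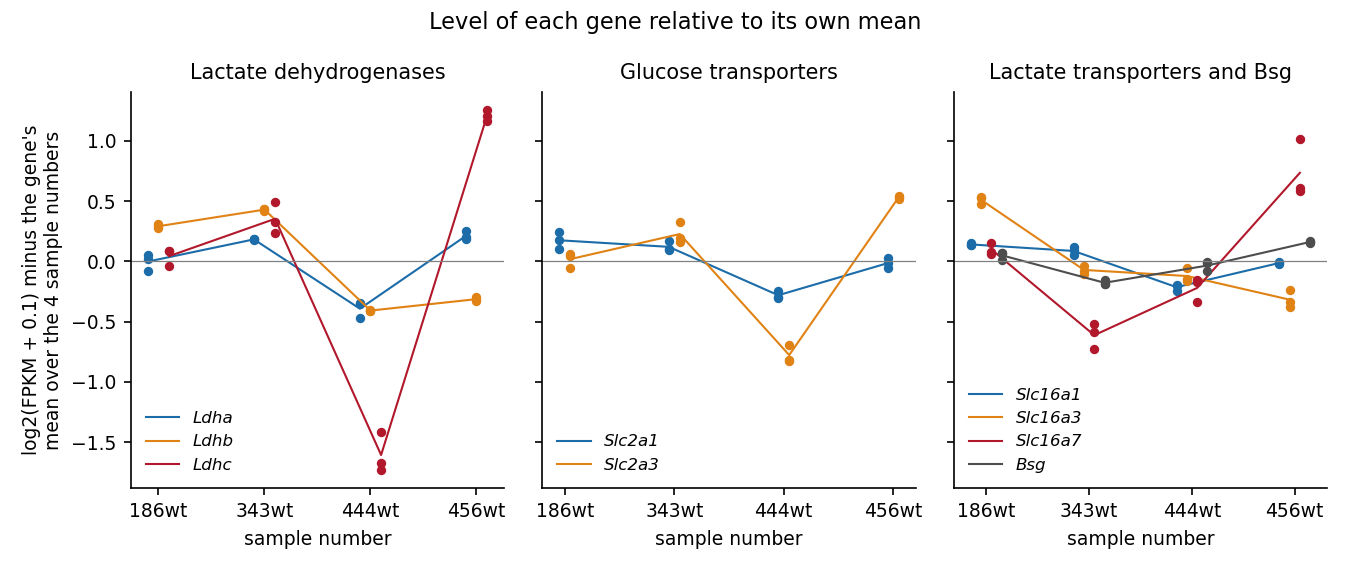
Level of each gene as log2(FPKM + 0.1) minus its own mean over the 4 sample numbers; points are libraries, and lines join the means of the numbers, which have no order. Ldhc and Slc2a3 have the same shape with a larger range for Ldhc (2.82 against 1.31), while Ldhb is high in 186wt and 343wt and Slc16a7 and Bsg are lowest in 343wt.

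Ldhb had its own pattern, high in 186wt and 343wt and low in 444wt and 456wt, and it was shared widely: 1222 of the 14348 genes had an r over 0.9 with it, led by Gstm2 (r = 0.999), Akr1b3 (r = 0.998) and Hmgn5 (r = 0.997). Gstm2, which encodes a glutathione transferase, was at 506, 546, 362 and 379 FPKM in 186wt, 343wt, 444wt and 456wt. The Sertoli marker list had the same order of numbers as Ldhb in its sum, which Clu dominates (2289 FPKM in 186wt), with 3088 FPKM in 186wt, 3189 FPKM in 343wt, 1767 FPKM in 444wt and 1946 FPKM in 456wt. Of the 10 Sertoli markers 9 were in the table and all 9 were called, beside 58.2% of the genes tested, with none at 0. Only 1 of them was called with a difference above 1 on the log2 scale, beside 10.5% of the genes tested. All 9 were higher in 186wt and 343wt than in 444wt and 456wt, but the order of Ldhb within these pairs was found in 2, and 5 were lowest in 456wt. The part of Sertoli RNA in the Ldhb difference was not tested.

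Marker sums of other cell types also differed between the numbers that set the range of Ldhc. The 9 meiotic prophase markers in the table summed to 586 FPKM in 186wt, 394 FPKM in 343wt, 655 FPKM in 444wt and 566 FPKM in 456wt, so that 444wt, where Ldhc was lowest, had the highest sum. Tex101, the largest part of the meiotic sum, ran the other way: its level was 314 FPKM in 456wt, against 272 FPKM in 444wt. Each of the other meiotic markers was highest in 444wt. The spermatogonial sum was also highest in 444wt, at 931 FPKM, and was 822 FPKM in 456wt. The 6 Leydig markers summed to 16.1 FPKM in 444wt and 66.1 FPKM in 456wt, with 117 FPKM in 343wt. All 6 were called with the lowest level in 444wt, beside 14.0% of the genes tested. The 5 macrophage markers summed to 6.04 FPKM in 444wt, 20.4 FPKM in 456wt and, highest, 25.5 FPKM in 343wt.

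The 5 peritubular myoid markers summed to 502 FPKM in 186wt, 235 FPKM in 343wt, 637 FPKM in 444wt and 1028 FPKM in 456wt. Like Slc16a7 and Bsg, this sum was highest in 456wt and lowest in 343wt. Acta2 made up its largest part, at 812 FPKM in 456wt. All 5 were called with the highest level in 456wt, beside 16.2% of the genes tested. Des, however, was lowest in 186wt, at 5.31 FPKM against 6.10 FPKM in 343wt. The endothelial sum was 29.2 to 56.2 FPKM and the erythroid sum 30.3 to 173 FPKM, both highest in 456wt. All 5 endothelial markers were called with the highest level in 456wt, beside 16.2% of the genes tested. Of these, 4 were lowest in 444wt, beside 14.0% of the genes tested, as were Ldhc and Slc2a3. The other, Egfl7, made up the largest part of the endothelial sum and was lowest in 186wt, at 14.9 FPKM. The part of any of these cell types in the differences of Ldhc, Slc2a3, Slc16a7 and Bsg was not tested.

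The rest of the route from glucose to the mitochondrion was expressed at levels that framed the 9 genes. Of 27 glycolytic genes, 22 reached 0.1 FPKM and 17 passed the test between numbers, none of them with a difference above 1 on the log2 scale, where 58.2% of all genes tested passed and 10.5% passed with such a difference. Gapdh, at 397 ± 23.9 FPKM (SD, n = 4), was the highest, a level for which reads shared with other genes were not examined. Aldoa, the main aldolase, followed at 280 ± 43.3 FPKM, and Pkm2, the symbol the table uses for the pyruvate kinase gene Pkm, at 277 ± 39.96 FPKM. Hkdc1 was the lowest of the 22, at 0.101 FPKM.

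The glycolytic genes with a form known from later male germ cells were low. The testis phosphoglycerate kinase gene Pgk2 was at 0.0900 ± 0.0198 FPKM beside 45.2 ± 4.37 FPKM for its somatic counterpart Pgk1, and the sperm glyceraldehyde phosphate dehydrogenase gene Gapdhs at 0.469 ± 0.154 FPKM. Eno4, a sperm enolase gene, was at 2.64 ± 0.394 FPKM. Ldhc, at 7.18 ± 4.83 FPKM, had a higher mean than these 3, although in 444wt, at 1.84 FPKM, it was below Eno4, at 2.66 FPKM.

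Of 16 genes that carry pyruvate into the mitochondrion and its oxidation, 15 were in the table, all 15 reached 1 FPKM and 13 were called, none with a difference above 1, beside the same 58.2% and 10.5% of all genes tested. Pdhb, a subunit of pyruvate dehydrogenase, was at 72.4 ± 3.83 FPKM, its kinase gene Pdk3 at 57.9 ± 3.63 FPKM and Brp44, the symbol the table uses for the pyruvate carrier gene Mpc2, at 52.1 ± 7.97 FPKM. Pdk4 was the lowest, at 1.198 ± 0.330 FPKM. The testis retrogene Pdha2 was at 4.86 ± 0.923 FPKM beside 17.5 ± 2.41 FPKM for the X-linked Pdha1.

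Of 10 other Slc16a genes and Emb, which encodes embigin, the chaperone of MCT2, 7 were called, a share near the 58.2% of all genes tested. Of these 11 genes, 3 had a called difference above 1 on the log2 scale, beside 10.5% of the genes tested. Emb was at 10.1 ± 3.38 FPKM, Slc16a6 at 6.46 ± 1.90 FPKM and Slc16a11 at 5.90 ± 2.22 FPKM, and the lowest was Slc16a12 at 0.112 ± 0.0554 FPKM. Emb was at 12.4 FPKM in 186wt, 12.9 FPKM in 343wt, 5.59 FPKM in 444wt and 9.35 FPKM in 456wt, a difference of 1.197 ± 0.074 (SE, log2 scale; limma, adjusted p = 2.38e-07). Its lowest number was 444wt, whereas that of Slc16a7 was 343wt.

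Of 12 other glucose transporter genes, 4 reached 1 FPKM, and 7 were called, near the 58.2% of all genes tested, or 4 with the library suffix as a block, without a filter on low values, at 1 FPKM, without the first 343wt library or without 343wt. Slc2a8 was at 8.43 ± 1.06 FPKM, Slc2a12 at 6.04 ± 1.91 FPKM and Slc2a4, the insulin-responsive transporter gene, at 3.21 ± 0.689 FPKM, all below Slc2a1 and Slc2a3, and Slc2a7 was the lowest at 0.127 FPKM. A called difference above 1 on the log2 scale was found for 4 of these 12 glucose transporter genes, beside 10.5% of the genes tested. Of 3 other lactate dehydrogenase genes, 2 were in the table. Uevld, which encodes a protein with a lactate dehydrogenase-like domain, was at 5.92 ± 0.547 FPKM, and Ldhd, the D-lactate dehydrogenase gene, at 2.66 ± 0.960 FPKM with its lowest level in 444wt.

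**Figure D5:**
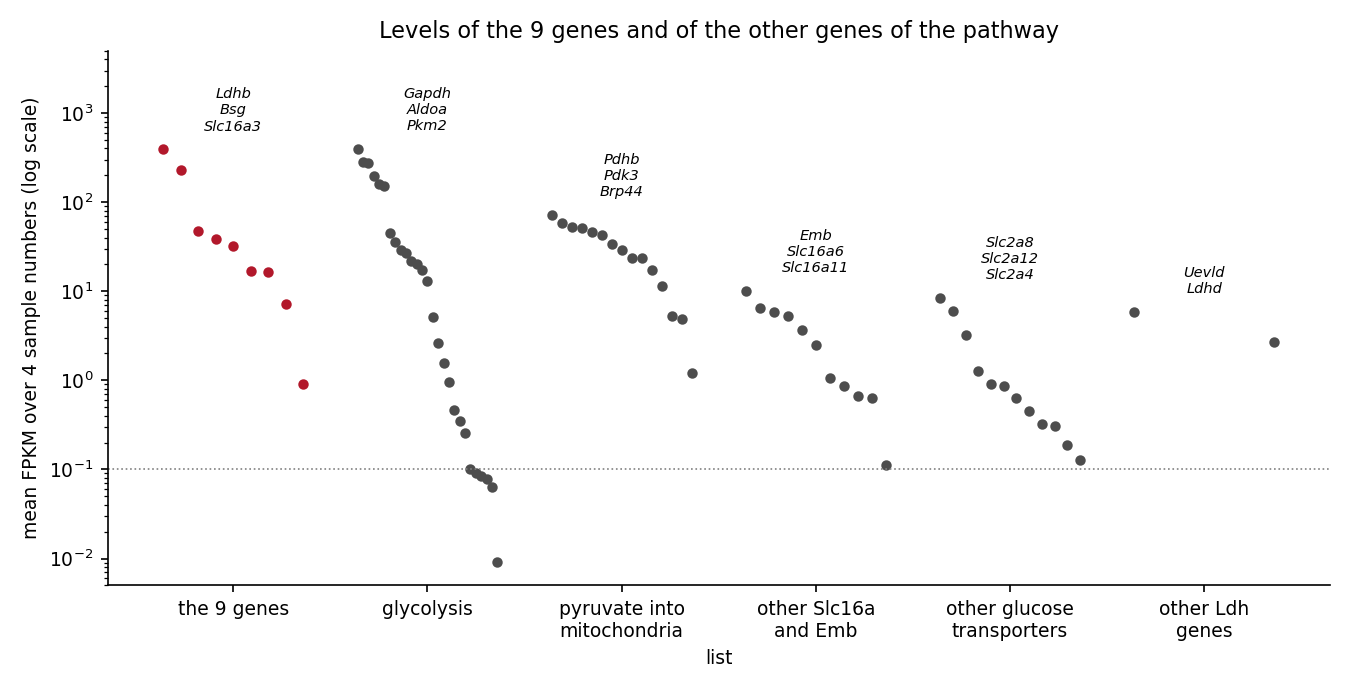
Mean FPKM over the 4 sample numbers (log scale) of the 9 genes (red) and of the other genes of 5 lists, each ordered by level, with the 3 highest named; the dotted line is 0.1 FPKM. Ldhb, at 392 FPKM, stands level with Gapdh, at 397 FPKM, and of the other Slc16a genes, Emb and the other glucose transporter genes plotted (grey) none exceeds 10.1 FPKM.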

How the data were processed

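RNA-seq libraries of enriched germ cells were analysed (12 libraries, 4 sample numbers). The other 9 samples of the series are not analysed here. The deposited FPKM were made by the authors, who aligned reads of 100 bases with BowTie 0.12.9 to the NCBI build 37 transcriptome and quantified genes with RSEM 1.2.8, which divides reads that several genes could give. Values have 2 decimals, and their strand setting is not given in the sources used here.

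Libraries were averaged by number. For differences between numbers, limma 3.58.1 (R 4.3.3) was used (trend, log2(FPKM + 0.1), moderated F-test, Benjamini-Hochberg) over the 20795 genes whose mean reached 0.1 FPKM, called at an adjusted p under 0.05, and shares and order by exact permutation tests (Python 3.11.15, numpy 2.4.6, pandas 2.3.3). Depth was estimated, since FPKM hold no counts. Its intervals were not used, because rounding lets libraries of nearly equal depth come out equal. Fragments per gene assume the longest transcript less a fitted length offset of 68.6 bases. This offset is not the fragment length that the authors set for RSEM, so fragments and counting errors are approximate. Positions are from GENCODE M1 on NCBI build 37, and coding sequences were aligned with Biopython 1.88. RefSeq listed promoters for 6 of the 9 genes. Plots were drawn with matplotlib 3.10.9. Scripts were tested on simulated data.

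The members and lists were chosen with earlier results of these data known. Genes named are the 9 members, the 3 highest and the lowest gene of at least 0.1 FPKM of each list, fixed genes with testis forms, the 3 genes most like each member, neighbouring or overlapping genes, and pseudogenes, and 1 listed gene is not reported here. Alternatives were pseudocounts of 1 and 0.01, no filter or a minimum of 1 FPKM, 2 scalings, no variance trend, a replicate block, the median of libraries, and leaving out each library and each number.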

Additional observations from a re-analysis of the deposited data

Results flagged for a closer look

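The share of Ldhb in the lactate dehydrogenase genes stood apart in 456wt, at 84.0% against 90.2% to 91.3% in the other 3 numbers (4 samples, gap to the nearest over the whole range 0.849, above Dixon's critical value). In all 22 values were looked at (the 9 genes, 4 shares and 9 marker sums) and 1 was picked out, where chance gives about 1 in 20.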

How the results depend on the processing

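Each of the 9 genes stayed past the threshold, with the number that was highest in the report above the one that was lowest, in every alternative in which it was tested, 215 comparisons in all (with its highest or lowest number left out, the range of the rest was taken). With the median of ratios Ldha was highest in 343wt and no longer in 456wt. With a pseudocount of 1 the difference of Slc16a7 was 0.71, against 1.35, and 2 members were called with a range above 1, against 3, as also with a minimum of 1 FPKM and without 343wt, 444wt or 456wt. The 4 shares stayed past the threshold wherever they were tested, and the median of the libraries, which has no test, moved them by less than 1 SD (72 comparisons). With a minimum of 1 FPKM Slc16a7 was not tested, which leaves 8 genes. The highest adjusted p (limma) over the alternatives was 0.016, for Slc2a1 without 444wt. The order of Slc2a1 and Slc2a3 turned without 444wt: with a number left out, the mean difference was -0.0586 to 0.289 on the log2 scale. Called genes with a range above 1 over the whole table numbered 729 with a pseudocount of 1 and 1252 with a minimum of 1 FPKM, against 2180, and 1299 to 2205 with a library or a number left out. Calls among the other glucose transporters were 4 to 7 with a library or a number left out, 4 without a filter, 4 with a minimum of 1 FPKM and 4 with the replicate block, against 7. Calls among the other lactate dehydrogenase genes were 1 to 2 with a library or a number left out, 1 without a filter, 1 with the median of ratios and 1 with the replicate block, against 2. The cause of these moves was not tested.

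Whether libraries with the same suffix belong together was looked at over 14348 genes: deviations from the means of the numbers correlated at -0.065 to 0.128 in 18 pairs of the same suffix and at -0.128 to 0.083 in 36 other pairs. The ranges overlapped, with that of the same suffix lying higher, and pairing by suffix was not tested. With the replicate block 11774 genes were called against 12107, all 9 members among them (Ldhc adjusted p = 9.29e-08), and the shares had an adjusted p of 0.0017 each by exact permutation.

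With 4 samples of 1 condition, the values describe these preparations. The counting error of a gene's lowest library ran from 1.37% for Bsg to 18.5% for Slc16a7. Differences between libraries of a gene within its counting error were not detectable at this depth, and counting errors cover counting alone.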
